A study of Mus musculus with 4 samples.

Results

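The 10 genes described here are negative feedback regulators of MAP kinase signalling: the dual specificity phosphatases Dusp1, Dusp2, Dusp4, Dusp5, Dusp6 and Dusp10, the Sprouty genes Spry1 and Spry2, and the Sprouty-related genes Spred1 and Spred2. The choice was made by name, with earlier results of these data known. They came from the 18161 genes of the array that had a probe set paired with a single gene. The array held 23 probe sets for them, and the brightest probe set of a gene, by its log2 mean over the 4 arrays, stood for that gene. The samples were leukemic blasts, positive for the GFP tag of the retrovirus, of a murine M7 (megakaryoblastic) leukemia with the designation T6(6), sorted from peripheral blood and from spleen of mouse 1 and of mouse 2, so that each tissue had 2 arrays. In both tissues and both mice the leukemia had been made by retroviral insertional mutagenesis of fetal progenitors with the Gata1 mutation Gata1s, the cells came directly from the animals, and no treatment was given. Strain, sex and age are not given in the sources used here, both mice carry one leukemia designation, and there is no array of normal cells, so blood and spleen are compared only with each other.

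MAP kinase cascades carry signals from receptors through Ras, Raf and MEK to the kinase ERK, with parallel branches that end in p38 and JNK. The cascades are limited by genes that they induce themselves. Dual specificity phosphatases remove phosphate from the threonine and the tyrosine that activate a MAP kinase, whereas Sprouty and Spred proteins act upstream, between the receptor and Raf. In blood cell precursors these cascades lie downstream of cytokine receptors such as Kit and the thrombopoietin receptor.

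Array medians ran from 103.7 to 110.6 in intensity, and 1.60% to 2.17% of values per array were negative. Of 14 tested markers of megakaryocytes 13 were higher in spleen in both mice, as were 38.5% of all tested genes, and the summed intensity of the list was 28265 and 27669 in the blood arrays and 33073 and 33481 in the spleen arrays. Its brightest genes were the platelet chemokine Pf4 at 8074 ± 534 (SD, n = 4 arrays), the transcription factor Nfe2 at 4978 ± 244 and the platelet integrin chain Itga2b at 4496 ± 353. Not all of the list was bright: Itgb3 ran from -4.17 to 122.6 over the arrays, and Treml1 read 82.8 and 73.8 in blood. A gene was tested for a difference between the tissues if its mean reached an intensity of 106.4, the median of all probe sets. This left 11608 genes. Of the feedback genes 6 were tested (Dusp1, Dusp2, Dusp10, Spry1, Spred1 and Spred2). The other 4, Dusp4, Dusp5, Dusp6 and Spry2, were dimmer and are given as values without a test. The dimmest tested member, Dusp10, had a mean intensity of 153.8 (back-transformed from log2, as for the filter), and Dusp6, just below the filter, had 98.7. Differences are on the scale of log2(intensity + 16), which understates the change of dim genes. Brightness differs between probe sets for reasons other than the amount of RNA, so levels are compared between arrays and not between genes.

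Promoter sequences of 9 of the 10 genes were matched by symbol in RefSeq, as windows of 300 bases that run from 250 before to 50 after the annotated start (mouse build GRCm38.p6). Those of Dusp1 and Dusp2 are printed because they had the largest differences among the tested genes. That of Dusp5 was added, after its values and matches had been seen, for its adjoining CArG boxes. The windows are chr17:26508423-26508722 on the minus strand for Dusp1, chr2:127335909-127336208 on the plus strand for Dusp2 and chr19:53528895-53529194 on the plus strand for Dusp5. Each is printed from 5′ to 3′ along the gene, and capitals mark every match to a searched motif on either strand.
Dusp1: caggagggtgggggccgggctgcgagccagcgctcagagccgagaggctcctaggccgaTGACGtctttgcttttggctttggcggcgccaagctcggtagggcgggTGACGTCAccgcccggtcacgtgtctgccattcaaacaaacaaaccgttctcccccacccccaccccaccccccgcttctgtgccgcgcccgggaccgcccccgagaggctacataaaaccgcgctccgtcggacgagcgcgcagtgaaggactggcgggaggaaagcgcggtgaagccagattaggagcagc
Dusp2: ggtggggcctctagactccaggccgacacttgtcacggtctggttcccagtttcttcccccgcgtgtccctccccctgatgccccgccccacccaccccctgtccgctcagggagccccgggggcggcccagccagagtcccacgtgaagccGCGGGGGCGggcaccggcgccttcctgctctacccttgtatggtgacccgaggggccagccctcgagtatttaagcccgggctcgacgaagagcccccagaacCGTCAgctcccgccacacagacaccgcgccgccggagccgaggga
Dusp5: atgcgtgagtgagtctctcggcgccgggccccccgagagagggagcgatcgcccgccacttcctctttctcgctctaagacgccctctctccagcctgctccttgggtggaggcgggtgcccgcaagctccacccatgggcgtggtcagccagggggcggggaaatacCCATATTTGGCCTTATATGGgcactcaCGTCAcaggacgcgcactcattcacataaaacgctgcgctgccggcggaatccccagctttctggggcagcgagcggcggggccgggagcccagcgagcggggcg

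The motifs were those of factors known to act at early response genes: the full cAMP response element TGACGTCA, its short form TGACG, the AP-1 site TGANTCA, the EGR site GCGNGGGCG, the ETS core CCGGAA and, by its name, the CArG box bound by the serum response factor. The full element contains the short form on each strand. The Dusp1 window held a full element from base -143 to base -136 relative to the start and a further short form from base -191 to base -187. Of all 32851 promoter windows of this length, 1.79% held the full element, and it was found in no other feedback gene. The short form occurred in 4 of the 9 windows (Dusp1, Dusp2, Dusp5 and Spred2) and in 20.8% of all windows. Dusp2 held an EGR site from base -98 to base -90, a motif of 5.55% of all windows. Dusp5 held CArG boxes from base -82 to base -73 and from base -72 to base -63, where 1.63% of all windows held at least 1. The ETS core was found in Spry2 (14.9% of all windows), and the AP-1 site in none of the 9 (7.81%). A match describes the letters in this window and not binding of a factor, and the array does not measure binding.

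**Figure D1:**
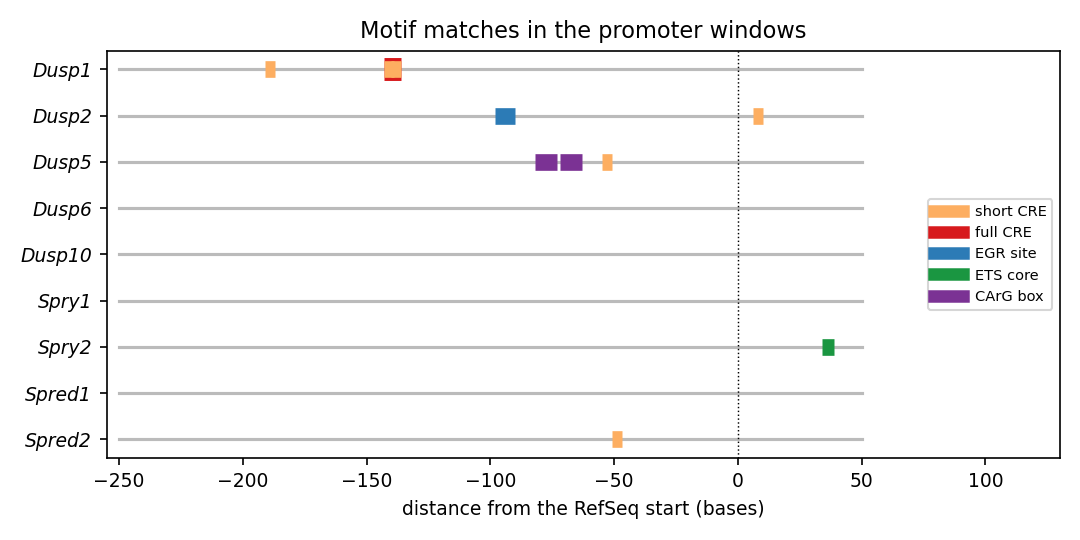
Motif matches in the RefSeq promoter windows of 9 feedback genes, with distance from the annotated start in bases on the horizontal axis and 1 line per gene; coloured blocks are matches on either strand. The full cAMP response element lies in Dusp1 alone among these genes, and the pair of CArG boxes in Dusp5.

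The question put to the arrays was how blasts of the spleen differ from blasts of the blood. Among the feedback genes Dusp1 differed most and was lower in spleen in both mice. Dusp2 was lower in spleen of mouse 2 and level between the tissues in mouse 1, and the tested Sprouty, Spred and Dusp10 transcripts had fitted differences between -0.20 and 0.19. Spry2, too dim for the test, was lower in both mice by values given with the Sprouty genes. No gene passed the test over all genes: limma with Benjamini-Hochberg adjustment called 0 of the 6 tested members and 0 of 11608 genes (0%). At an unadjusted p under 0.05, 1 of the 6, Dusp1, was lower in spleen, where 4.31% of all tested genes (500) were, and none of the 6 was higher, where 8.12% (943) were. With each array centred on its median the split over all genes was 354 lower and 1310 higher. The p-values rest on the spread between these 2 animals per tissue, with each gene's spread drawn by limma toward that of all tested genes. They do not reach beyond these animals.

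Dusp1 encodes MKP-1, a nuclear phosphatase of p38, JNK and ERK that is transcribed within minutes of many stimuli. For mouse 1 the intensity was 2334 on the blood array against 621 on the spleen array, and for mouse 2 it was 2793 against 164. Both blood arrays were bright and both spleen arrays far lower, with no overlap between the tissues. The spleen level was 26.6% of the blood level in mouse 1 and 5.87% in mouse 2. The log2 difference of spleen minus blood was -1.88 in mouse 1 and -3.97 in mouse 2, and -2.92 ± 0.54 in the fit (SE, 2 arrays per tissue, unadjusted p = 0.0016, adjusted p = 0.171, limma). Counted from the most negative difference among the 11608 tested genes, Dusp1 ranked 2 in mouse 1 and 10 in mouse 2. It was 1 of the 12 tested genes that were at least 2-fold lower in spleen in both mice, a share of 0.103%, and it was the sole feedback gene among them. The blood arrays of the mice differed by 0.26 (mouse 2 minus mouse 1) and the spleen arrays by -1.82, so the larger tissue difference of mouse 2 lay mostly in its spleen array. Without spleen replicate 1, Dusp1 was called, with a difference of -3.84 and an adjusted p of 0.0027 (limma). Without spleen replicate 2 the difference was -2.01, with an adjusted p of 0.160, and over the remaining alternatives the adjusted p ran from 0.069 to 0.698.

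Dusp2, known as PAC1, is an inducible nuclear phosphatase of ERK and p38 that is prominent in blood cells. For mouse 1 the blood and spleen arrays gave intensities of 493 and 488, and for mouse 2 they gave 659 and 304. The spleen array of mouse 2 stood lowest and its blood array highest. The arrays of mouse 1 were alike. The log2 difference was -0.01 in mouse 1 and -1.08 in mouse 2, and -0.55 ± 0.25 in the fit (adjusted p = 0.436, limma). Without spleen replicate 2 it was -0.22, and without spleen replicate 1 it was -0.87. The levels of the tissues do not overlap in the literal sense, but the gap rests on mouse 2, and with each array centred on its median the difference of mouse 1 turned to 0.01.

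The other inducible nuclear phosphatases of the set were dim. Dusp5, which dephosphorylates ERK in the nucleus, read 1.14 (blood) and 5.24 (spleen) in intensity for mouse 1, against 91.1 (blood) and -13.6 (spleen) for mouse 2. A single array, blood of mouse 2, stood above the rest, and it too lay below the filter. The log2 differences of 0.31 and -2.74 therefore rest on values near 0 and on the offset. Without blood replicate 2 the mean difference was 0.10 in place of -1.22. Dusp4, a nuclear phosphatase of ERK and JNK, had intensities of 24.0 and 28.1 in mouse 1 and of 24.9 and 25.3 in mouse 2. It was dim and level on all 4 arrays.

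Dusp6 encodes the cytoplasmic phosphatase that is selective for ERK, and its transcript is widely read as a sign of ERK output. Mouse 1 gave intensities of 101.9 (blood) and 103.5 (spleen), and mouse 2 gave 115.0 (blood) and 77.7 (spleen). The gene lay at the filter, with spleen of mouse 2 lowest, and the log2 differences were 0.02 and -0.48. Dusp10 encodes MKP-5, which acts on p38 and JNK. Its intensity was 163.0 and 165.9 in mouse 1 and 124.7 and 165.3 in mouse 2, for blood and spleen in turn. Blood of mouse 2 was the lowest array and the other 3 were nearly equal. The fitted difference was 0.19 ± 0.15 (adjusted p = 0.621, limma). A second, dimmer probe set of Dusp10, with a mean intensity of 46.4, went the other way in both mice, by -0.50 and -0.35, so the direction of Dusp10 is not settled by these probe sets.

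**Figure D2:**
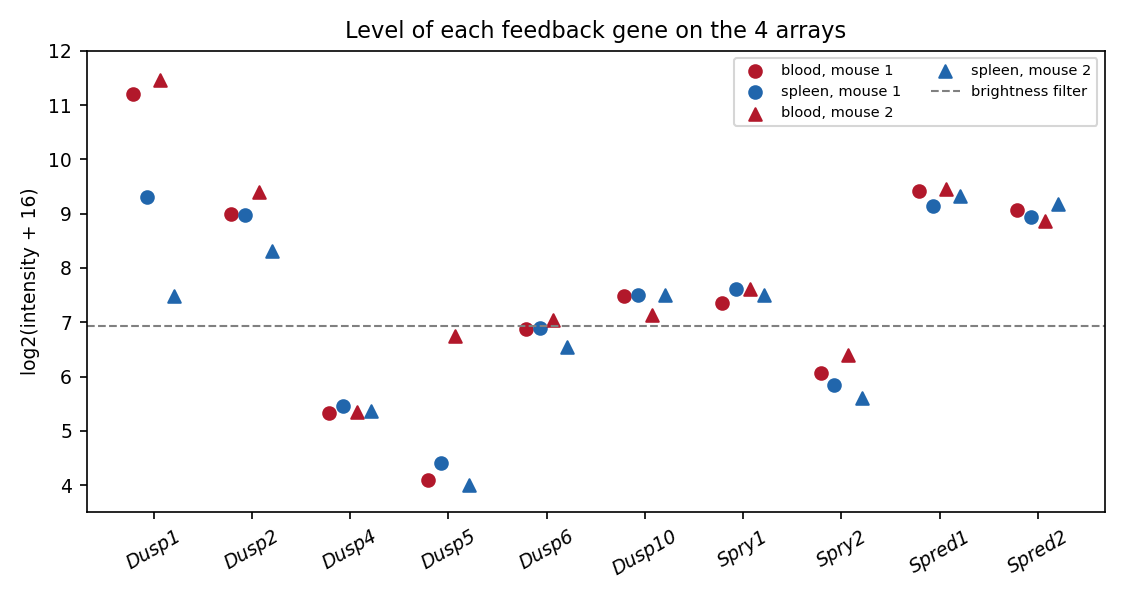
Level of each of the 10 feedback genes on the 4 arrays, as log2(intensity + 16) on the vertical axis; red marks are blood, blue marks spleen, circles mouse 1, triangles mouse 2, and the dashed line is the brightness filter. The spleen arrays of Dusp1 stand at 621 and 164 against 2334 and 2793 in blood, while Spry1, Spred1 and Spred2 stay within a narrow band.

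Sprouty proteins are induced by growth factor signals and restrain Ras and Raf activation downstream of receptor tyrosine kinases. Spry1 read 148.5 (blood) and 179.2 (spleen) in intensity for mouse 1, against 180.0 (blood) and 165.5 (spleen) for mouse 2. The tissues overlapped and the mice went opposite ways, by 0.25 and -0.11, with a fitted difference of 0.07 ± 0.13 (adjusted p = 0.866, limma). Spry2 was dim, at 51.1 and 41.8 in mouse 1 and 68.6 and 32.5 in mouse 2. It was lower in spleen in both mice, by -0.21 and -0.80 on the log2 scale. Its other probe set, with a mean intensity of 28.1, differed by 0.06 and -0.77.

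Spred proteins hold the Ras inhibitor neurofibromin, the product of Nf1, at the membrane, and Spred1 loss is known from Legius syndrome, a disorder of the Ras pathway. Spred1 read 668 (blood) and 547 (spleen) in intensity for mouse 1, against 683 (blood) and 623 (spleen) for mouse 2. Both spleen arrays lay a little below both blood arrays, and the fitted difference was -0.20 ± 0.12 (adjusted p = 0.536, limma). Of the 8 probe sets of Spred1, 1 was lower in spleen in both mice, 5 were higher in both and 2 went opposite ways, with mean differences from -0.21 to 0.30. The mean of all 8 gave 0.08. Spred2 had intensities of 518 and 473 in mouse 1 and of 448 and 563 in mouse 2, with overlapping tissues and a fitted difference of 0.10 ± 0.14 (adjusted p = 0.815, limma). Of its 5 probe sets, 2 were lower in both mice, 1 was higher in both and 2 went opposite ways, and the mean of all 5 gave -0.0053. Probe sets of a gene share its RNA and the arrays, so they are not independent measurements.

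**Figure D3:**
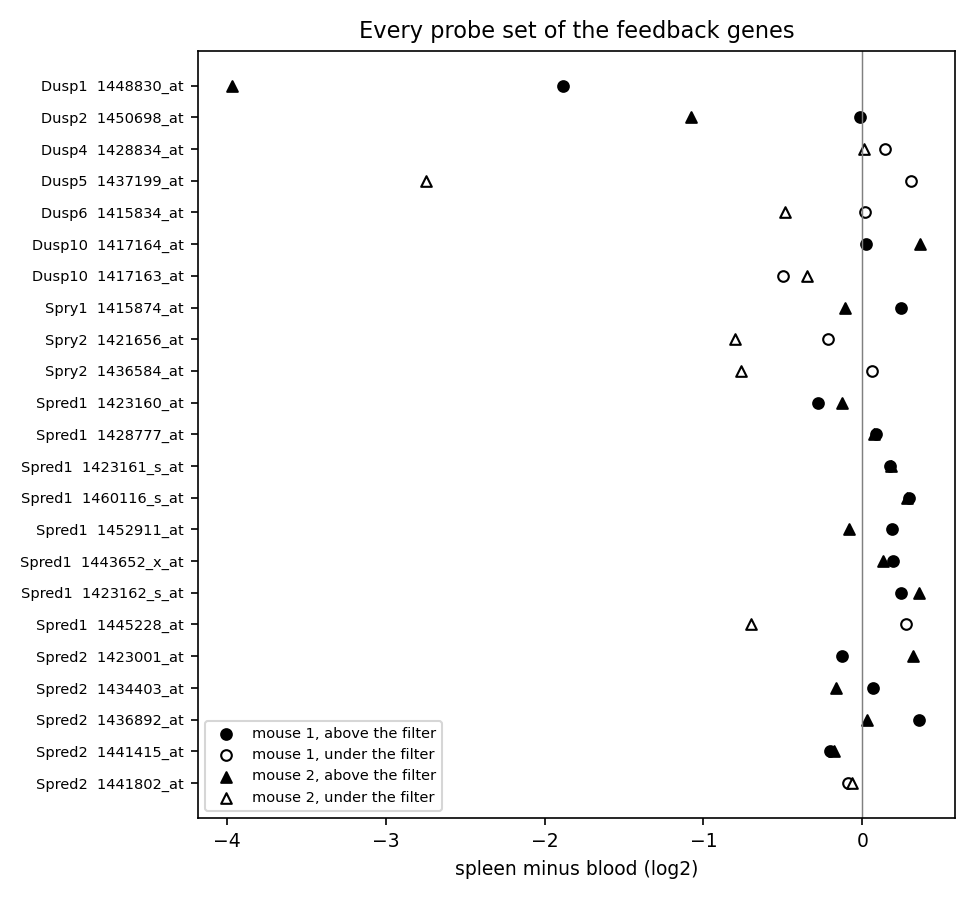
Spleen minus blood for each of the 23 probe sets of the feedback genes, as log2 differences on the horizontal axis; circles are mouse 1, triangles mouse 2, and open marks are probe sets under the brightness filter. The Dusp1 probe set stands at -1.88 and -3.97, whereas the 8 probe sets of Spred1 lie on both sides of 0.

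Across the set, 3 of the 6 tested genes (Dusp1, Dusp2 and Spred1) were lower in spleen in both mice, against 25.1% of all tested genes, and 1, Dusp10, was higher in both, against 38.5%. The same 3 had both spleen arrays below both blood arrays, which was true of 17.6% of the tested genes, and Dusp10 had both above, which was true of 27.5%. With the dim genes included, 4 of 10 were lower in both mice (26.7% of all 18161 genes) and 2 of 10 were higher (32.9%). The count of lower genes is not firm. It was 3 of 10 with each array centred on its median, and 3 of 10 with the mean of all probe sets. Dusp2 was level in mouse 1, and most probe sets of Spred1 were higher in spleen in both mice. The median difference of the 6 tested genes was -0.07, and that of all tested genes 0.03. Apart from Dusp1 and Dusp2, the tested members had fitted differences between -0.20 and 0.19.

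**Figure D4:**
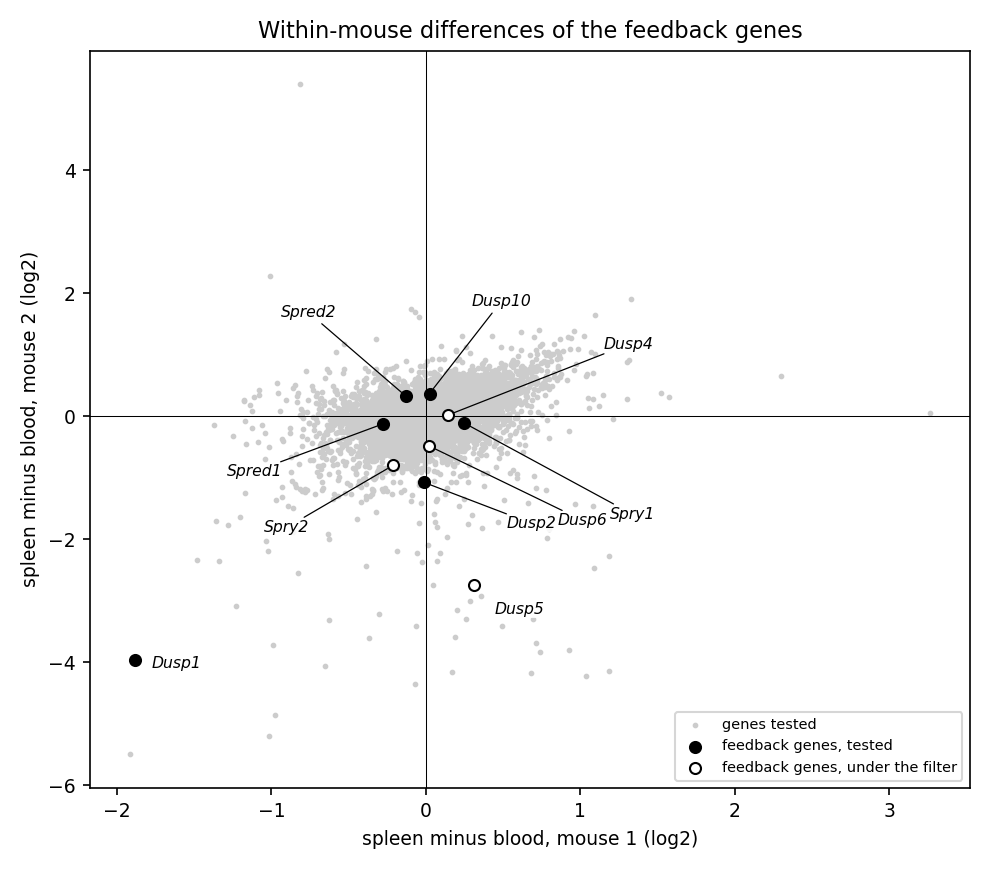
Spleen minus blood in mouse 1 (horizontal axis, log2) against mouse 2 (vertical axis, log2) for 11608 tested genes (grey) and the 10 feedback genes (black, or open where under the filter). Dusp1 lies at -1.88 and -3.97, Dusp2 lies at -0.01 and -1.08, Dusp5 at 0.31 and -2.74 and Spry2 at -0.21 and -0.80; the other 6 lie between -0.48 and 0.37 on both axes.

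An array order recurred in part of the feedback genes. Dusp1, Dusp2, Dusp5, Dusp6 and Spry2 had their highest value on the blood array of mouse 2 and their lowest on its spleen array, 5 of the 10 genes, where 12.1% of all genes had that order. Among tested genes it was 2 of 6 against 11.9%. This order was counted after the values had been seen, and 3 of the 5 genes are dim. Part of the markers of mature blood cells had the same order. The summed intensity of 14 granulocyte markers was 8576 and 19015 in the blood arrays of mouse 1 and mouse 2 and 6802 and 3505 in the spleen arrays, and 10 of the 14 had the same order. Prtn3 of that list was higher in spleen in both mice, by 0.75 and 0.52, as was Ctsg, by 0.51 and 0.34. For 14 markers of macrophages and monocytes the sums were 3685 and 7438 in blood and 4527 and 3145 in spleen. Of the 14, 7 were in that order, while C1qa, C1qb, C1qc and Mrc1 were highest in spleen of mouse 1. There they read 132, 273, 231 and 104, although their means over the arrays lay below the filter. For 14 markers of T and NK cells the sums were 7975 and 12036 in blood and 9834 and 5411 in spleen. The order was that of Gzma, Gzmb, Prf1, Klrd1, Ncr1, Il2rb and Ccl5, 7 of the 14. The T cell markers Cd3e, Cd3d, Cd3g, Cd4, Cd8a and Thy1 did not have it, nor did Nkg7. Sums of 8 MHC class II markers were 2517 and 5183 in blood and 3108 and 2441 in spleen, with 1 of 8 in that order, and those of 8 B and plasma cell markers stayed between 638 and 758, with 0 of 8. No marker of the granulocyte, macrophage and T and NK lists was at or below an intensity of 16 on all arrays. That does not show that each was detected, and it was true of the B and plasma cell markers too. Of the 3 lists in turn, 3, 6 and 2 markers lay below the brightness filter. The brightest markers were S100a9, Lyz2 and Nkg7. The sort was on GFP, carried by the retrovirus. Fewer cells of a type and less RNA per cell cannot be told apart in such samples, and the part of these cells in the differences of Dusp1, Dusp2 and Dusp5 was not tested.

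The genes whose pattern over the 4 arrays was most like that of a feedback gene were sought for Dusp1 and Dusp2, the tested members whose log2 values spanned at least 1. Likeness was the Euclidean distance between log2 values centred on each gene's mean. Nearest to Dusp1 were S100a8 (distance 0.90), S100a9 (1.06) and Fos (1.18). S100a8 read 2346 (blood) and 1185 (spleen) in intensity for mouse 1, against 5601 (blood) and 178 (spleen) for mouse 2. Fos read 299 (blood) and 67.7 (spleen) for mouse 1, against 855 and 3.26 for mouse 2. S100a8 and S100a9 encode calcium-binding proteins of neutrophils, and Fos an AP-1 subunit. The last value of Fos is near 0, so its difference in mouse 2 and its distance rest on the offset of 16. Nearest to Dusp2 were the myeloid receptor Cd300lf (distance 0.08), the receptor Klrg1 of NK and T cells (0.14) and AW112010 (0.15), with differences of -1.08, -1.17 and -0.90 in mouse 2 and of -0.05, 0.14 and 0.07 in mouse 1. Over 4 arrays many genes can share a pattern, and these distances are a description.

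Dusp1 was lower in spleen, and so were most tested immediate early genes, which cells transcribe first after a stimulus. The list was chosen with earlier results of these data known, so its counts are a description and not a test. Of 16 tested genes of that list, which leaves Dusp1 out, 14 were lower in spleen in both mice, where 25.1% of all tested genes were. An unadjusted p under 0.05 with a lower level in spleen was found for 12 (4.31% of all tested genes), and 0 passed over all genes. Of the 16, 10 had the array order of most granulocyte markers (11.9% of all tested genes). In that order blood of mouse 2 is highest and its spleen lowest. The part of granulocytes in the list's differences was not tested. Their median difference was -0.82 in mouse 1 and -1.36 in mouse 2. The transcription factor Klf6 differed by -1.91 ± 0.23 and the activation antigen Cd69 by -1.85 ± 0.23, both with an adjusted p of 0.140 (limma). The list was not uniform. Nr4a2 and Nr4a3, the 2 tested genes not lower in both mice, went opposite ways in the mice. In mouse 1 and mouse 2 Nr4a2 differed by 0.08 and -0.28, and Nr4a3 by -0.07 and 0.61. Ier3, a gene induced by ERK, differed by -0.12 ± 0.11 in the fit, and the nuclear receptor gene Nr4a1 by -0.08 ± 0.11. Summed over its 22 genes, the intensity of the list was 18193 and 20716 in blood and 11340 and 8883 in spleen.

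Genes listed as ERK output, which are targets of ERK signalling and factors that act downstream of it, did not share one direction. The list has Fos, Egr1 and Ier3, all lower in both mice, in common with the immediate early genes. Of the 13 tested ERK output genes 6 were lower and 4 higher in spleen in both mice (25.1% and 38.5% of all tested genes). The unadjusted p was under 0.05 for 2 of the lower and 3 of the higher ones (4.31% and 8.12%). Fos and the transcription factor gene Egr1 were lower in both mice, Egr1 by -1.37 ± 0.27. The fitted -3.71 ± 0.75 of Fos includes the spleen value of 3.26 and so rests on the offset. Ccnd1, the cyclin that drives entry into the cell cycle, was higher at 172 and 284 in mouse 1 and 165 and 243 in mouse 2, a difference of 0.60 ± 0.13 (adjusted p = 0.201, limma). Elk1 and Srf, which encode factors of the serum response complex, differed by 0.38 ± 0.15 and 0.30 ± 0.12. The Ets factor gene Etv4, with Dusp6 and the Sprouty genes one of the usual readouts of growth factor signals, differed by -0.22 ± 0.19.

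In the rest of the pathway no gene passed the test over all genes, and differences went in either direction. In 7 lists of phosphatases, receptors and adaptors, Ras regulators and kinases, 64 of 88 genes were tested, 20 were lower in both mice, 15 higher in both and 29 opposite, where 25.1% of all tested genes were lower in both and 38.5% higher. Their median difference was -0.04, that of all tested genes 0.03. An unadjusted p under 0.05 was found for 3 lower and 4 higher genes (4.31% and 8.12% of all tested genes), and 0 passed over all genes. Those counts by unadjusted p are near the shares of all tested genes, so the genes named from these lists are given as values only. Among the other phosphatases, Dusp16, which acts on JNK and p38, differed by -0.36 ± 0.16, and Dusp8, of the same class, by 0.30 ± 0.11. Dusp9, an ERK phosphatase, had intensities of 1792 and 1770 in mouse 1 and of 1450 and 1670 in mouse 2, a difference of 0.09 ± 0.14. Of the atypical dual specificity phosphatases, Dusp15 had the largest difference, -0.38 ± 0.11. Spry3 and Spry4, the other tested Sprouty genes, differed by 0.11 ± 0.12 and -0.07 ± 0.13.

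Upstream of Ras, the stem cell factor receptor Kit stood at 1451 (blood) and 2084 (spleen) for mouse 1 and at 1313 and 2156 for mouse 2, a difference of 0.61 ± 0.12 (adjusted p = 0.180, limma). Both spleen arrays lay above both blood arrays. The Ras exchange factor Sos1 differed by 0.51 ± 0.14 and the adaptor Gab1 by 0.33 ± 0.13 in the same direction. Of the brakes on receptors and Ras, the ubiquitin ligase Cblb had intensities of 358 and 305 in mouse 1 and of 501 and 199 in mouse 2, and a difference of -0.74 ± 0.24 (adjusted p = 0.341, limma). Its array order was that of Dusp1 and Dusp2. Nf1, the partner of the Spred proteins, differed by -0.08 ± 0.14. Among kinases and scaffolds, Map2k1 (MEK) differed by -0.03 ± 0.16, Braf by -0.12 ± 0.13, the p38 kinase Mapk14 by -0.07 ± 0.11 and the scaffold Iqgap1 by -0.31 ± 0.12, and none was called.

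**Figure D5:**
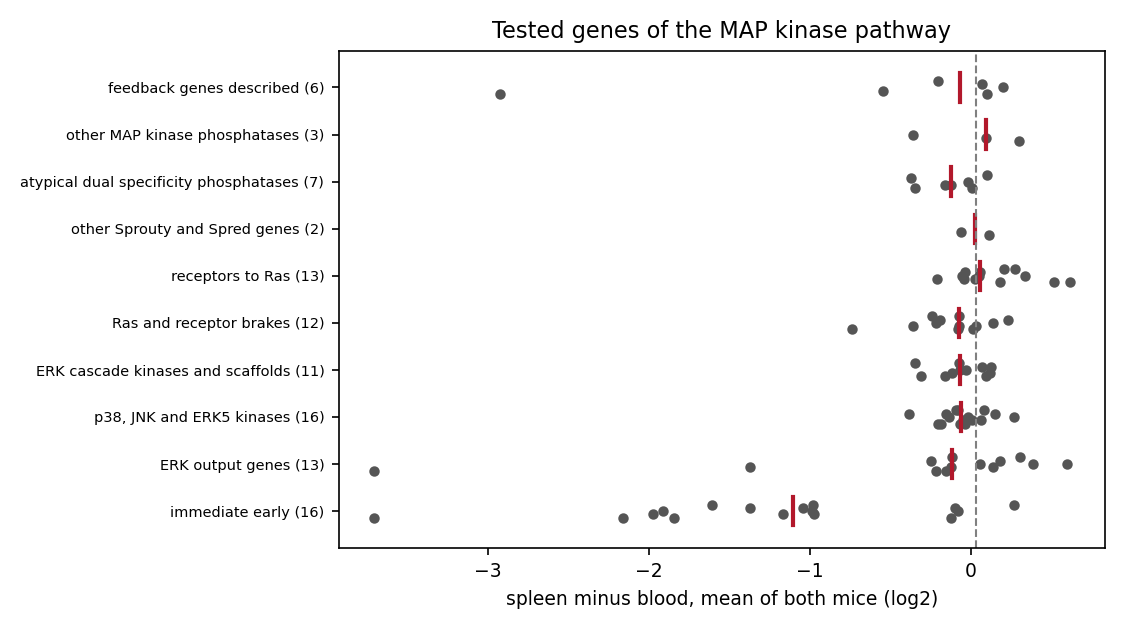
Spleen minus blood (log2, mean of both mice) for each tested gene of the feedback set and of 9 further lists; points are genes, red bars list medians, the dashed line the median of all tested genes, and the number tested stands in brackets. Dusp1 at -2.92 is lower than every tested immediate early gene but Fos at -3.71, and the kinase and adaptor lists lie around 0.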

How the data were processed

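Total RNA of 4 samples of sorted leukemic blasts was hybridised to Affymetrix mouse arrays as biotinylated cRNA, per the labels' protocols. The deposited table holds linear intensity values per probe set. No source used here gives how the authors summarised probes, corrected background or scaled arrays. Precision is limited by having 4 arrays.

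Of 45101 probe sets, 34945 were paired with 1 gene symbol, 932 with several and 9160 with none, and 64 were controls. Symbols were updated through the Entrez identifier (34741 matched, RefSeq GRCm38.p6). Negative intensities became 0, and log2 followed an offset of 16, on the deposited scaling. The fit was limma 3.58.1 (R 4.3.3), two-sided, with only tissue in the model, adjusted by Benjamini-Hochberg over all 11608 tested genes, threshold 0.05. Members and lists were chosen with earlier results of these data known. Named genes were all members, the nearest 3 in pattern, the brightest 3 megakaryocyte markers, the brightest marker of other cell lists, and in each pathway list up to 3 per direction with the largest smaller within-mouse difference. Genes named beyond that rule (Nr4a1, Nr4a2, Nr4a3, Etv4, Spry3, Dusp9, Nf1, Map2k1, Braf and further markers of the cell lists) were chosen after their values were seen.

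Mouse number pairs the arrays, since blood and spleen came from one animal, per the labels. The difference between the mice correlated between tissues at r = 0.10 across genes, which are not independent replicates.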

Additional observations from a re-analysis of the deposited data

Results flagged for a closer look

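Among the tested feedback genes, Spry1 and Spred2 went opposite ways in the mice. Spleen minus blood of Spry1 was 0.25 in mouse 1 and -0.11 in mouse 2, and that of Spred2 was -0.13 in mouse 1 and 0.32 in mouse 2, on the log2 scale. The difference between the mice was not tested because a mouse has 1 array per tissue.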

How the results depend on the processing

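Over 13 alternatives 121 values of the 10 genes counted as unchanged, 5 reversed and 1, Dusp1 without spleen replicate 1, counted as stronger. For a tested gene, unchanged means the same direction and the same side of the threshold. The dim genes have no side of the threshold, and unchanged means a shift smaller than the SD between the mice. In each dim gene, mouse 2 minus mouse 1 had opposite signs in blood and spleen. Leaving out an array could then not shift a value by that SD, so the label unchanged was fixed in advance for those alternatives. By the rule for dim genes Dusp5 counted as unchanged although its difference went from -1.22 to 0.10 without blood replicate 2. Dusp1 ranged from -3.84 to -2.01 and was below 0 in all 13. The mean of all probe sets turned Spred1 to 0.081 and Spred2 to -0.0053. Leaving out each array in turn gave Spred2 between -0.026 and 0.22 and Spry1 between -0.058 and 0.19, so their sign depends on single arrays. Without replicate arrays in turn, 0 to 20 genes and 0 to 1 feedback genes were called, the latter Dusp1 without spleen replicate 1, where 20 genes were called; the lone array of a tissue is then assumed to vary like the others. With the filter at the 75th percentile 40 genes were called and with a trend prior 45, none of them a feedback gene. With mouse as a replicate block 0 genes were called, and the difference of Dusp1 was -2.92 with an adjusted p of 0.185 (limma). The block changed no call. The count of feedback genes lower in spleen in both mice needs both arrays of each mouse and has no value with an array left out. It was 3 in place of 4 with median centring and with the mean of all probe sets, and 4 in the other alternatives that kept all arrays. Under the stricter filter Dusp10 and Spry1, and with the mean of all probe sets Dusp10, had no test. Dim signal limits Dusp4, Dusp5, Dusp6 and Spry2, and differences of Dusp5 ran from -2.54 to 0.10. The cause of these changes was not tested.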
